A study of Mus musculus with 2 samples.

Results

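Apolipoprotein E and the genes of cholesterol efflux were examined in single cells of mouse gonadal white adipose tissue (gWAT). The 8 genes were Apoe, Apoc1, Abca1, Abcg1, Abca8a, Pltp, Lrp1 and Nr1h3, of 28692 genes in the count tables. They were chosen by name, partly because Apoe and Apoc1 had been higher in fibroblasts of the knockout library in earlier results of the same files. The comparison of fibroblasts between the libraries is therefore a description for them, with no test.

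The stromal vascular fraction (SVF) is what remains of fat tissue after collagenase digestion once the floating adipocytes are removed. It was profiled by droplet single-cell RNA sequencing in 1 control library and 1 adipose tissue-specific Pgam1 knockout library (Adipo-Pgam1 KO, here the KO library). Both came from male C57BL/6 mice of 13 weeks. The control is labelled as a littermate wild type, while the study's methods give its littermate controls as carrying floxed Pgam1 without Cre, and the KO carries floxed Pgam1 alleles with Cre driven by the Adipoq promoter. That promoter acts in adipocytes, which the preparation largely removes. Preadipocytes of the fraction may carry the deletion too, and which of the cells described here do was not tested. The number of mice behind each library is not given in the sources used here. Each genotype is 1 library, so genotype and library cannot be told apart in any value. All intervals below are 95% intervals that cover counting error only.

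Apolipoprotein E is the protein of lipoprotein particles that cells such as macrophages secrete to take up cholesterol, and the LDL receptor family, with Lrp1 among its members, clears particles that carry it. The transporters ABCA1 and ABCG1 pass cholesterol from the cell to such acceptors, and the phospholipid transfer protein, Pltp, remodels the particles outside the cell. Nr1h3 encodes LXR alpha, a nuclear receptor for oxysterols that binds DNA with RXR and activates several of these genes, including Abca1, Abcg1, Apoe, Apoc1 and Pltp in macrophages.

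In GRCm38, Apoe lies at chr7:19696109-19699188 on the minus strand and Apoc1 at chr7:19689481-19692660 on the same strand, 3448 bases from it. Abca1 lies at chr4:53030787-53159895 on the minus strand. The promoters of Apoe, the member that differed most between the libraries in fibroblasts, and of Abca1 are shown because LXR acts on both genes. They run from 250 bases before to 50 bases after the RefSeq start (GRCm38.p6), at chr7:19699139-19699438 and chr4:53159846-53160145, and are written 5′ to 3′ on the minus strand. Capitals mark a match to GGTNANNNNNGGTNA on either strand, a loose form of the LXR response element.
Apoe: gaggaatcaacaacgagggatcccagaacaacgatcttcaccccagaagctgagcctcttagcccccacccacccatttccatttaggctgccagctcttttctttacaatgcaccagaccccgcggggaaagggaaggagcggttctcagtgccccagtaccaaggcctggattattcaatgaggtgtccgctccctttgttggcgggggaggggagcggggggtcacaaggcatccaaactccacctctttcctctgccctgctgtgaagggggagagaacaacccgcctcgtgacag
Abca1: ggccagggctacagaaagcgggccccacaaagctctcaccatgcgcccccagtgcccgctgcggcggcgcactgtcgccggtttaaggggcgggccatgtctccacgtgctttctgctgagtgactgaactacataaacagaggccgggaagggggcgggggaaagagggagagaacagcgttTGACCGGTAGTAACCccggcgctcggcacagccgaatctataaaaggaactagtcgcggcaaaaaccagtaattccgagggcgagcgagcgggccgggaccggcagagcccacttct
The loose form was found in 234 of 32544 mouse promoters of this length (0.719%). Among 9 promoters of the 6 members with an entry, it was found in that of Abca1, at position -67 from the start, and in none of the 3 of Apoe. The stricter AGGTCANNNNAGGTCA was found in 5 promoters of the mouse table (0.0154%) and in none of the members'. A match describes the letters of the window and is not a binding site.

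After filtering, 3616 control cells and 937 KO cells were kept, with a median of 6888.5 and 7481 UMIs (unique molecular identifiers, the counted RNA molecules) per cell. Levels are the summed UMIs of a gene as counts per 1000000 (CPM) of all UMIs in a cell group. Cells were grouped without the 8 genes and named by markers, with "like" added because the names are rebuilt from the counts. Fibroblast-like cells numbered 766 in the control against 178 in the KO library, and all 8 of their markers were found in 93.6% to 100% of control cells and 98.3% to 100% of KO cells, depending on the marker. They comprised cluster 0, led by Fam150b, Bmper, Agt and Cxcl14, with 499 and 118 cells, and cluster 3, led by Pi16, Cilp, Ackr4 and Sfrp4, with 267 and 60 cells. Macrophage-like cells comprised cluster 1, led by Lyz1, Mmp12, Ccl12 and Ear2, with 336 and 79 cells, and cluster 2, led by Cd209f, Fcna and Folr2, with 316 and 17 cells. Because the 2 macrophage clusters made up different shares of the class in each library, macrophages are given by cluster. Of the cell barcodes, 9 occurred in both libraries, 2 of them among the kept cells.

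Pgam1, the targeted glycolytic enzyme, was present in both libraries. In fibroblast-like cells it was 108 CPM in the control against 104 CPM in the KO library, a log2 ratio of -0.05 (-0.24 to 0.13). Cluster 0 had 109 and 116 CPM (0.08, -0.14 to 0.30), and cluster 3 had 107 and 81.9 CPM (-0.38, -0.75 to -0.03). The share of these cells that the Cre reached is not known, so these levels do not check the genotype label. The paper reports a fibroblast cluster rich in adipocyte markers, whose counterpart in KO mice had markedly lower Pgam1. That cluster was not matched to the clusters here.

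Apoe was detected in most cell groups of the SVF, with its highest level in cluster 2 macrophages. It was 8803 CPM there in the control and 11759 CPM in the KO library. The Schwann cell-like cells of cluster 24 followed with 4630 and 7577 CPM, from 6 and 5 cells. Monocyte-like cells (2513 CPM) and cluster 1 macrophages (1963 CPM) came next in the control. Unnamed cluster 16 (led by Tenm2, Ajap1 and Ptn), endothelial-like cells, unnamed cluster 15 (led by Dcdc2a, Mt3 and Calml3) and mesothelial-like cells lay between 803 and 1229 CPM. Fibroblast-like cells had 359 CPM (347 to 371) in the control, from 3382 UMIs. Low levels were found in dendritic cell-like cells (61.7 CPM) and in the T, B and NK cell-like classes, pooled here as lymphocyte-like cells (81.0 CPM). Lymphocytes should lack Apoe, so the last level was taken as the background of free RNA in the droplets. The background differed between the libraries, at 43.9 CPM in the KO library against 81.0 CPM in the control.

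**Figure D1:**
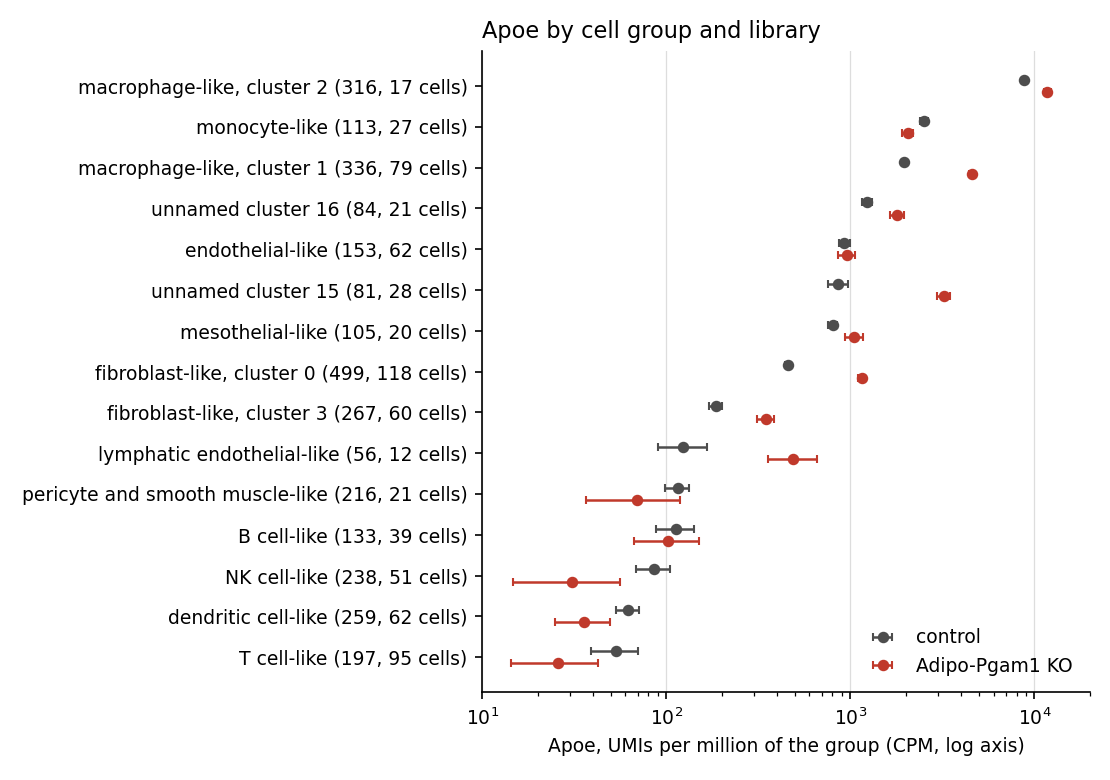
Apoe level in CPM on a log axis for 15 cell groups, with 1 point per library and bars for the 95% Poisson interval. Fibroblast-like clusters, cluster 1 macrophages and unnamed cluster 15 sit further right in the KO library, while monocyte-like cells and the 3 lymphocyte groups do not.

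In fibroblast-like cells, Apoe was higher in the KO library, at 887 CPM (854 to 922) from 2617 UMIs. The log2 ratio to the control was 1.30 (1.23 to 1.38), a 2.47-fold higher level. Cluster 0 showed the larger difference, with 458 CPM in the control against 1154 CPM in the KO library, a log2 ratio of 1.33 (1.25 to 1.42). In cluster 3 the levels were 185 and 347 CPM, a log2 ratio of 0.91 (0.71 to 1.10), just under the 2-fold limit used here for counting genes. Split by the progenitor markers Pi16 and Dpp4, cells without a UMI of either had 527 and 1366 CPM of Apoe, and cells with one had 166 and 297 CPM. The difference was thus present in both kinds of fibroblast-like cell and was larger where the level was already higher.

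The excess was spread over part of the KO cells. Per 10000 UMIs of a cell, the median Apoe level of fibroblast-like cells was 0.838 in the control against 1.55 in the KO library, while the upper quartile was 3.21 and 10.0. Cells with at least 10 Apoe UMIs per 10000 were 10.1% of control cells (77 of 766) and 25.3% of KO cells (45 of 178). In cluster 0 they were 12.6% and 33.9%, and in cluster 3 they were 5.24% and 8.33%. Any Apoe UMI was present in 59.8% of the control and 68.5% of the KO fibroblast-like cells, against 25.2% and 17.8% of the lymphocyte-like cells. Depth differs between these groups, with medians of 12304 and 17875.5 UMIs in fibroblast-like cells and 4185 and 5788 in the lymphocytes. With every cell thinned to 2000 UMIs, leaving out 10 control and 2 KO fibroblast-like cells that were shallower, the shares were 29.5% (26.3% to 32.9%) and 45.5% (38.0% to 53.1%). The thinned shares of the lymphocytes were 12.9% and 5.17%, so both fibroblast shares lay above the background.

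**Figure D2:**
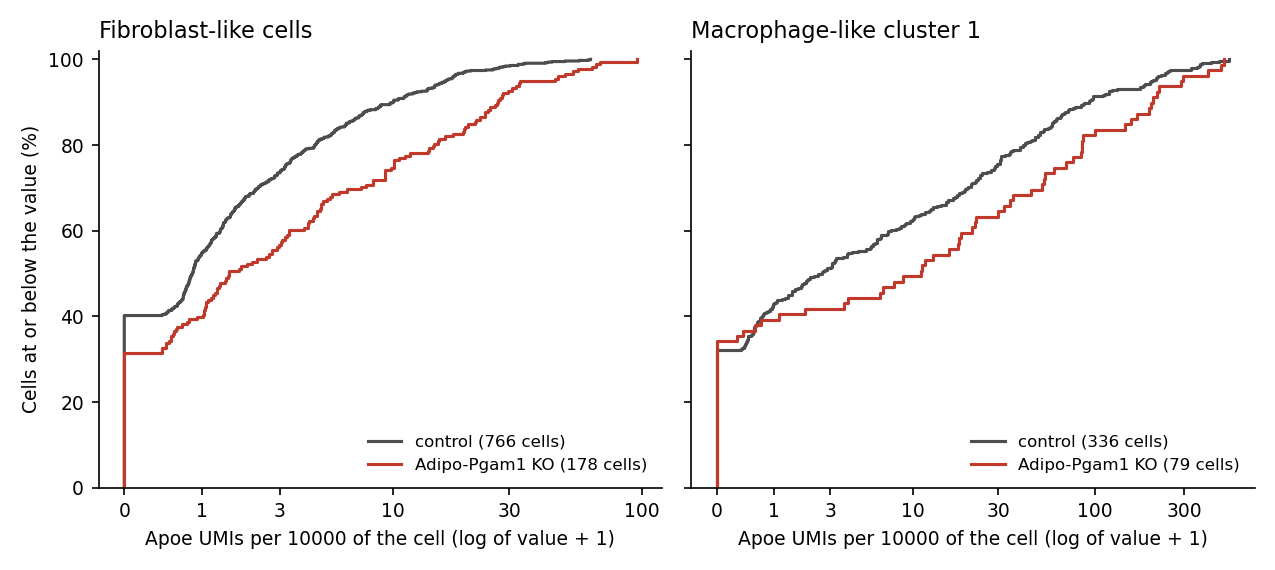
Cumulative share of cells (%) by Apoe UMIs per 10000 UMIs of the cell, for fibroblast-like cells and for cluster 1 macrophages of each library. The KO curve lies to the right over the upper part of the cells, where 25.3% of KO and 10.1% of control fibroblast-like cells reach 10 per 10000.

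Macrophage RNA was measured in the same fibroblast-like cells. Of 8 abundant macrophage genes, 6 were lower by 2-fold or more in the KO library, against 3.09% of all genes with at least 10 UMIs, and their summed level was 138 CPM in the control and 62.7 CPM in the KO library. Cd74, the invariant chain of MHC class II and among the most abundant of them, was 57.8 and 24.4 CPM. The summed level of adipocyte markers was 4.04 and 4.41 CPM in the class, 4.16 and 6.08 CPM in cluster 0, where Slc2a4, the 1 marker measured, was 1.02 higher on the log2 scale, and 3.82 and 1.02 CPM in cluster 3. The part of either in the Apoe result was not tested.

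Apoe was the only one of the 7 members with at least 50 UMIs in fibroblast-like cells that was 2-fold or more higher in the KO library, and 0 were 2-fold or more lower. Over all 10507 genes with at least 50 UMIs, 1.11% were as much higher and 1.71% as much lower (117 and 180 genes, or 157 and 137 after TMM scaling). The fibroblast contrast chose the members, so nothing is read from this count. In cluster 0 Apoe was again the only such member, beside 1.01% of genes higher and 2.13% lower, and in cluster 3 there was none, beside 0.972% and 2.53%.

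**Figure D3:**
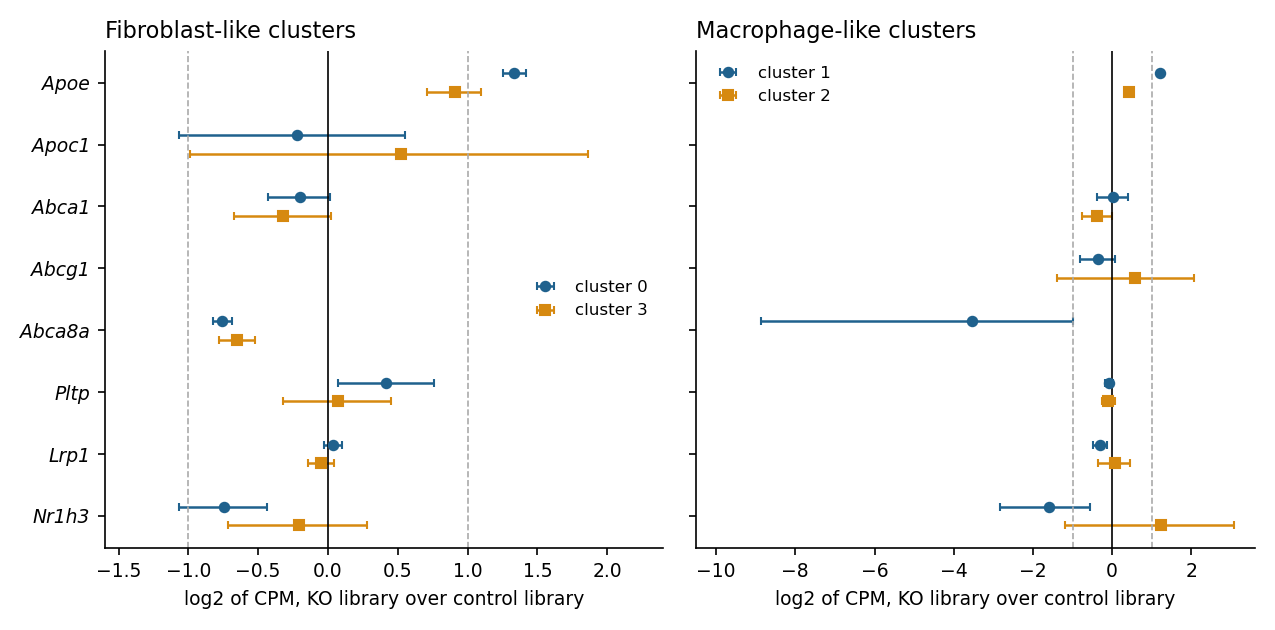
Log2 ratio of CPM, KO over control library, of the 8 genes in fibroblast-like clusters 0 and 3 and macrophage-like clusters 1 and 2. Points are ratios, bars 95% intervals, and dashed lines a 2-fold difference; a gene with too few UMIs for a ratio has no point. Apoe lies right of 0 in all 4 clusters, and Abca8a lies left of 0 in clusters 0, 3 and 1, the last from 49 and 1 UMIs.

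Macrophages differed by cluster. In cluster 1, Apoe was 1963 CPM (1920 to 2007) in the control and 4570 CPM (4436 to 4708) in the KO library, a log2 ratio of 1.22 (1.16 to 1.27). In cluster 2, the levels of 8803 and 11759 CPM gave 0.42 (0.35 to 0.48), the KO value from 17 cells. The median cell of cluster 1 had 2.54 Apoe UMIs per 10000 in the control against 11.05 in the KO library, and 37.2% and 50.6% of cells had at least 10. The share of cluster 1 cells with a UMI was 67.9% and 65.8%, and 48.6% and 56.2% after thinning. So the cells of cluster 1 ranged from background to very high Apoe in both libraries, and the 10 highest cells held 36.8% of the Apoe UMIs in the control against 78.0% in the KO library, which had fewer cells. For the macrophage-like class, the Apoe ratio of 0.39 was 0.13 (0.08 to 0.18) without the 5% of cells of each library highest in Apoe, and it ranged from 0.13 to 0.72 over 18 alternatives. The summed level of 8 macrophage markers in cluster 1 was 4144 and 5895 CPM, also higher in the KO library, with none past 2-fold. Their part in the Apoe result was not tested.

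Elsewhere Apoe was lower, close or higher in the KO library depending on the cell type. Monocyte-like cells had 2513 and 2046 CPM, a log2 ratio of -0.30 (-0.42 to -0.17), and endothelial-like cells 930 and 955 CPM, a ratio of 0.04 (-0.14 to 0.22). Mesothelial-like cells had 803 and 1044 CPM, and cluster 16 had 1229 and 1795 CPM. Larger differences were found in some other groups. Cluster 15 had 860 and 3227 CPM from 246 and 597 UMIs, a log2 ratio of 1.91 (1.69 to 2.13), and lymphatic endothelial-like cells 124 and 491 CPM from 43 and 45 UMIs. Over all kept cells Apoe was 1227 and 1338 CPM, a log2 ratio of 0.12, so the sum over the SVF showed little of what single cell groups did.

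Apoc1, the small apolipoprotein encoded beside Apoe, was rare in the SVF and near or at 0 in macrophages, where Apoe was highest. Leaving aside the cells set apart by Schwann cell markers, described below, its highest level was in unnamed cluster 16, at 126 CPM in the control (112 UMIs) and 178 CPM in the KO library (49 UMIs), a log2 ratio of 0.50 (-0.01 to 0.999). There 46.4% of control and 57.1% of KO cells had an Apoc1 UMI. Monocyte-like cells followed with 24.2 and 26.3 CPM, and macrophage-like cells had 6 UMIs in the control against 0 in the KO library. Dendritic cell-like cells had 0 in both, and so had lymphocyte-like cells, where 0 of 568 and 0 of 185 cells had a UMI. With 3 cells taken as the limit that a count of 0 allows, up to 0.528% and 1.62% of cells could have had an Apoc1 UMI at this depth, which is no limit on the share that express the gene.

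In fibroblast-like cells the Apoc1 levels of the libraries were close, with a wide interval. It had 81 UMIs in the control against 25 in the KO library, and its levels of 8.601 and 8.476 CPM gave a log2 ratio of -0.02 (-0.73 to 0.64). A UMI was present in 5.61% and 7.87% of cells, and in 1.46% and 1.70% after thinning. Cluster 0 gave -0.22 (-1.06 to 0.55) and cluster 3 gave 0.52 (-0.99 to 1.87). A difference within these intervals was not detectable at this depth. With cells chosen by marker gates in place of clusters, 162 and 68 UMIs gave 0.61 (0.18 to 1.03), an interval above 0.

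A higher Apoc1 level in the KO fibroblast clusters rested on 1 cell. Cells with UMIs of 3 or more of 8 Schwann cell markers were left out of every other class, among them 10 control and 3 KO cells of clusters 0 and 3. Those 10 and 3 cells had 0 UMIs of Sox10 and Foxd3, a median of 8 fibroblast markers found, and mostly Scn7a (111 and 32 UMIs) among the Schwann cell markers. Scn7a also had the most UMIs of these markers in fibroblast-like cells. The cells may thus be fibroblasts, which was not tested. With the 10 and 3 cells included, Apoc1 had 82 UMIs in the control against 89 in the KO library, a log2 ratio of 1.79 (1.34 to 2.24). A single KO cell of cluster 3 held 64 of those 89 UMIs (71.9%), or 42.1 Apoc1 UMIs per 10000 of its own, while the next highest KO cell of the clusters had 5 and the highest control cell 7. The same cell held 368 Apoe UMIs. It had UMIs of 3 Schwann cell markers (6 in all) and of all 8 fibroblast markers (603 in all), with 1 of macrophage and 0 of endothelial markers. Without this cell alone, the log2 ratio of Apoc1 was -0.04 and that of Apoe 1.31.

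**Figure D4:**
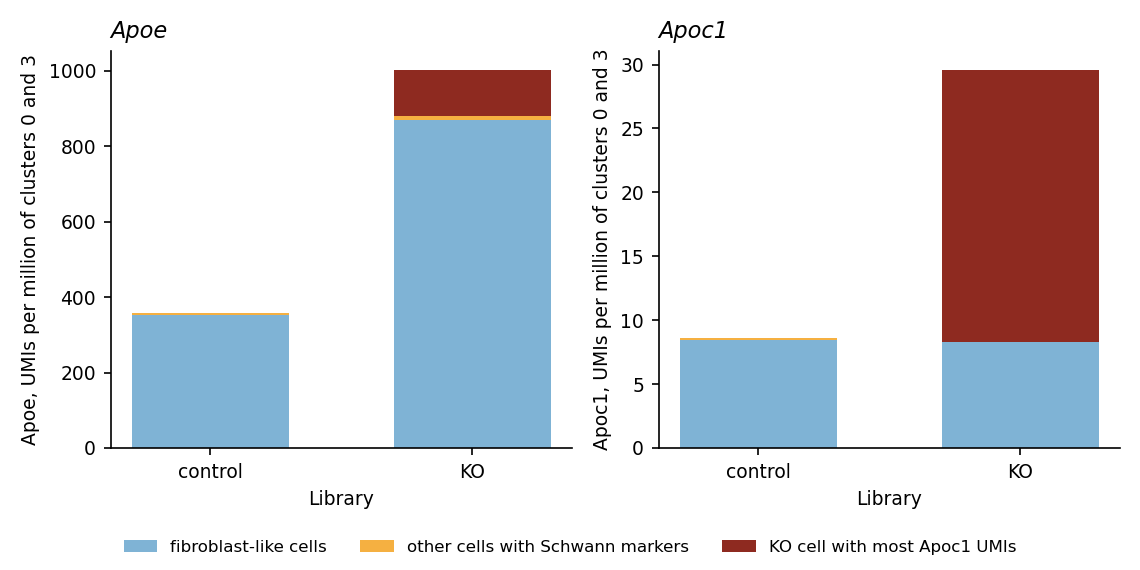
Apoe and Apoc1 UMIs per 1000000 UMIs of clusters 0 and 3 in each library, stacked by the fibroblast-like cells, the other cells with Schwann cell markers, and the single KO cell with the most Apoc1. The cell adds 64 of 89 Apoc1 UMIs and 368 of 3016 Apoe UMIs in the KO library, and the fibroblast-like parts of Apoc1 are level between libraries.

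Abca1, which loads cholesterol and phospholipid onto lipid-poor apolipoproteins, was highest in lymphatic endothelial-like cells (450 and 458 CPM) and cluster 2 macrophages (456 and 352 CPM, a log2 ratio of -0.37, -0.76 to -0.01). In fibroblast-like cells it was 121 CPM in the control against 103 CPM in the KO library, a log2 ratio of -0.23 (-0.42 to -0.05). Its interval reached past 0 with TMM scaling (-0.13, -0.32 to 0.05), with median-of-ratios scaling, after trimming or thinning, in cells with 200 genes and at most 20% mitochondrial UMIs, and with the control clustered alone. Cluster 1 macrophages had 72.1 and 73.1 CPM. Lymphocyte-like cells had 24.7 and 18.1 CPM. Cluster 15 was the exception, with 21 and 32 UMIs (73.4 and 173 CPM) and a ratio of 1.24 (0.40 to 2.10), and Apoe was higher there too.

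Abcg1, which passes cholesterol to mature HDL particles, was found in blood cells, lymphatic vessels and other vessel cells here. Monocyte-like cells had 82.1 and 81.7 CPM, cluster 1 macrophages 71.1 and 55.3 CPM (a log2 ratio of -0.36, -0.81 to 0.07), and lymphatic endothelial-like cells 57.7 and 87.3 CPM. Endothelial-like cells had 30.2 and 34.4 CPM. Pericyte and smooth muscle-like cells had 18.0 CPM in the control (28 UMIs) and 0 UMIs in the KO library. Those 28 UMIs were all in cluster 12 (led by Gipr, Abcc9 and Kcnj8), which had 127 control and 7 KO cells, so the values are not compared. In lymphocyte-like cells it was 41.5 and 37.9 CPM, so these cells give no background for it. Fibroblast-like cells had 7 UMIs in the control against 1 in the KO library, too few for a comparison.

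Abca8a, an ABC transporter linked to cholesterol efflux and HDL, was mainly found in fibroblasts and was lower there in the KO library. Fibroblast-like cells had 1471 CPM in the control (13856 UMIs) and 900 CPM (867 to 935) in the KO library (2656 UMIs), a log2 ratio of -0.71 (-0.77 to -0.65), 1.63-fold lower. Cluster 0 had 1788 and 1059 CPM and cluster 3 had 913 and 581 CPM, with log2 ratios of -0.76 (-0.82 to -0.69) and -0.65 (-0.78 to -0.52), so the difference was of like size in both clusters. Cluster 24, named by Schwann cell markers, had 2824 and 2108 CPM from 6 and 5 cells. Macrophage-like cells had 75 UMIs in the control against 1 in the KO library (12.0 and 0.873 CPM), which is at or below the level in lymphocyte-like cells (16.4 and 4.30 CPM) and is read as background.

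**Figure D5:**
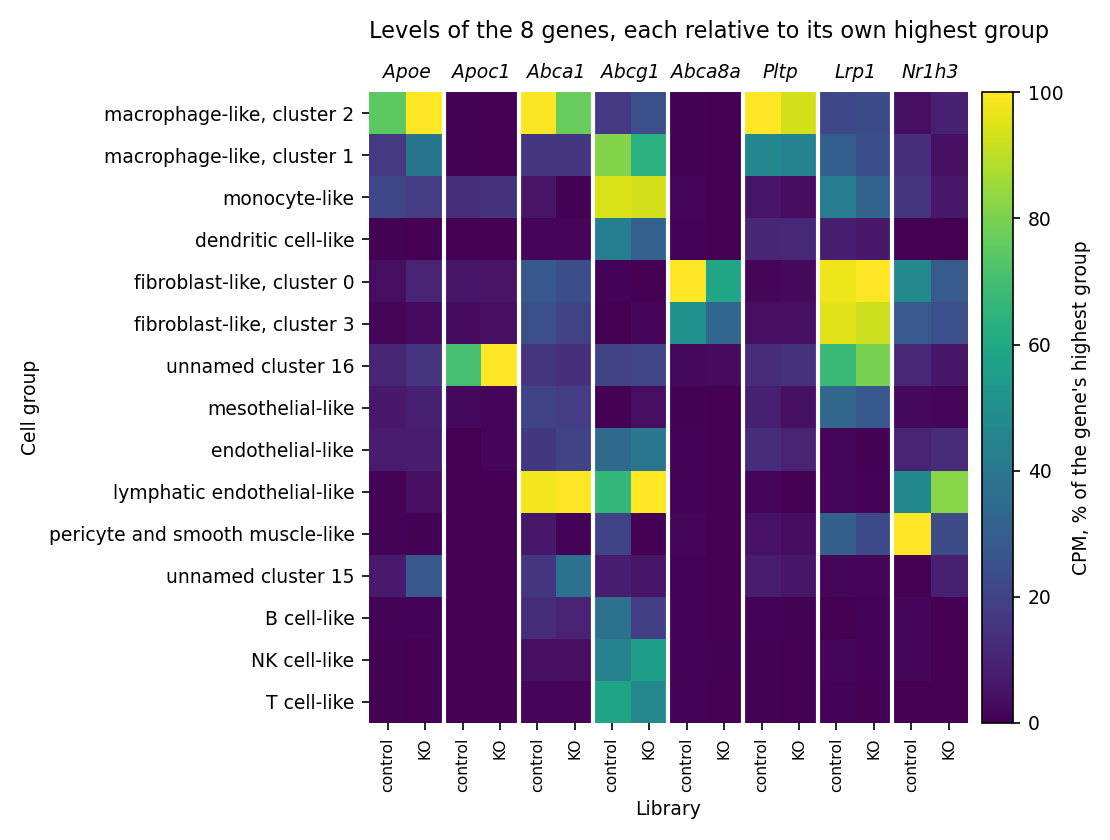
Level of each of the 8 genes (CPM) as a percentage of its highest value among the groups and libraries shown, from 0 (dark) to 100 (yellow). Apoe and Pltp peak in cluster 2 macrophages, Abca8a and Lrp1 in fibroblast-like cells, Apoc1 in unnamed cluster 16 and Abcg1 in lymphatic endothelial-like and monocyte-like cells.

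Pltp, the phospholipid transfer protein, had the same leading cell type as Apoe. It was 2029 and 1899 CPM in cluster 2 macrophages and 951 and 897 CPM in cluster 1, where the log2 ratio was -0.08 (-0.19 to 0.02), in contrast to the 1.22 of Apoe in the same cells. Endothelial-like cells had 256 and 199 CPM. Dendritic cell-like cells held clusters 7 (led by Ccl22) and 18 (led by Xcr1) in different shares, and nearly all of their Pltp was in cluster 7, with 307 and 437 CPM, a ratio of 0.51 (0.29 to 0.73). Fibroblast-like cells had 51.6 and 60.7 CPM, a ratio of 0.23 (-0.02 to 0.48), of which cluster 0 gave 0.42 (0.07 to 0.76). The interval for the class lay above 0 with TMM (0.34, 0.08 to 0.59) and median-of-ratios scaling (0.34), without the 5% highest cells (0.44), with the control clustered alone (0.46) and with marker gates (0.30). In mesothelial-like cells Pltp was lower in the KO library, with 180 and 87.5 CPM, a log2 ratio of -1.04 (-1.68 to -0.46) from 253 and 26 UMIs. The background in lymphocyte-like cells was 15.7 and 4.30 CPM.

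Lrp1, the endocytic receptor for Apoe-bearing particles and many other ligands, was close to level between the libraries in fibroblasts. Fibroblast-like cells had 1265 CPM in the control against 1273 CPM in the KO library, a log2 ratio of 0.01 (-0.04 to 0.06). The interval lay above 0 after TMM scaling (0.11, 0.06 to 0.17) and median-of-ratios scaling (0.12), in cells with 1000 genes and at most 5% mitochondrial UMIs (0.097) and with marker gates (0.058). Cluster 16 had 887 and 1047 CPM (0.24, 0.04 to 0.44). It was lower in the KO library in some myeloid groups, with 534 and 415 CPM in monocyte-like cells (-0.37, -0.65 to -0.09) and 390 and 315 CPM in cluster 1 macrophages (-0.31, -0.49 to -0.13). Cluster 2 macrophages (285 and 299 CPM, a ratio of 0.07, -0.36 to 0.46) and dendritic cluster 7 (148.8 and 149.6 CPM) were close to level. Endothelial-like cells (20.1 and 9.82 CPM) lay near the background of 12.1 and 6.89 CPM.

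Nr1h3, the LXR alpha gene, was lower in fibroblasts of the KO library. Fibroblast-like cells had 703 UMIs in the control against 147 in the KO library, and 74.6 and 49.8 CPM gave a log2 ratio of -0.58 (-0.85 to -0.32). Cluster 0 gave -0.75 (-1.06 to -0.44) and cluster 3 gave -0.21 (-0.72 to 0.28). With cells thinned to equal depth, 97 and 25 UMIs were left and the ratio was 0.15 (-0.55 to 0.79). In cluster 1 macrophages it was also lower, with 101 and 8 UMIs and a ratio of -1.58 (-2.83 to -0.55), while cluster 2 had 15 and 3 UMIs, a ratio of 1.24 (-1.19 to 3.07). For macrophage-like cells as a class the ratio of -0.95 turned to 1.21 in cells with 200 genes and at most 20% mitochondrial UMIs and to 1.02 with the control clustered alone. In each of these settings the class held 24 KO cells, against 96 in the main one, so it was not made of the same cells. In the control its highest level among the named classes was in pericyte and smooth muscle-like cells (185 CPM, against 42.5 CPM in the KO library), whose clusters took different shares in the libraries, so the values are not compared. In the KO library lymphatic endothelial-like cells had more, at 153 CPM from 14 UMIs. Lymphocyte-like cells had 1.96 CPM in the control and 0 UMIs in the KO library.

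In cluster 1 macrophages, with 1.60% of 7697 genes 2-fold or more higher and 2.52% as much lower, Apoe was the 1 member higher and Nr1h3 and Abca8a were lower, the last at background level. In cluster 2, where 1.55% and 6.39% of genes passed, no member with at least 50 UMIs did.

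Lists of related genes were compared in fibroblast-like cells with the same measure, counting genes with at least 10 UMIs, of which 3.12% were 2-fold or more higher and 3.09% lower over all genes. Of 10 other ABC lipid transporters, all measured, 1 was higher (Abcg4, from 12 and 8 UMIs) and 1 lower (Abca7, a log2 ratio of -1.01), with a list median of -0.28. The median of all genes was -0.09. Abca8b and Abca6, which lie in the same gene cluster on chromosome 11 as Abca8a, had 279 and 148 CPM (-0.92) and 172 and 98.7 CPM (-0.81). Abca8a and Abca8b are close paralogs, and reads could be divided between them in counting.

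Other members of the apolipoprotein family were mostly not measured. Of 12 listed, 2 had enough UMIs (Apod and Clu), and neither passed 2-fold in the class. Apod, a lipocalin of connective tissue cells, was 308 and 161 CPM, a log2 ratio of -0.94. Its clusters differed, with 407 and 170 CPM in cluster 0 (-1.26) and 134 and 143 CPM in cluster 3 (0.09, -0.19 to 0.37). Clu, the other measured member, had 26 and 3 UMIs in cluster 0 (-1.51, -3.88 to 0.20) and 26 and 15 in cluster 3 (1.01, -0.01 to 1.98). So both were 2-fold or more lower in cluster 0, where 2.88% of genes were higher and 3.44% lower, and Clu was higher in cluster 3, where 3.21% were higher and 3.91% lower. Of 9 genes around Apoe on chromosome 7, 6 were measured and none passed 2-fold, with a median of -0.19 (Clptm1 -0.28, Tomm40 -0.26).

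Of 7 LXR and RXR receptors and coregulators 6 were measured and none passed 2-fold, with Nr1h2 (LXR beta) at 0.05 and Rxra at -0.25. Of 13 other LXR target genes 11 were measured, and Arl4c alone was lower (36 and 5 UMIs, -1.17). Lpl, lipoprotein lipase, was 1454 and 1378 CPM (-0.08).

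Of 15 other lipoprotein receptors 10 were measured, of which Sorl1 (-1.19), Cd36 (-1.59) and Stab1 (-2.13) were lower. Cd36 and Stab1 are also macrophage genes. Vldlr, the VLDL receptor that binds Apoe, was 241 and 174 CPM (-0.47). Of 15 genes of cholesterol egress, storage and oxysterol metabolism 12 were measured, and Cyp7b1, which hydroxylates oxysterols, was higher (45 and 34 UMIs, 1.27), with a list median of 0.12.

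In cluster 1 macrophages 3.75% of genes were higher and 3.86% lower by the same rule. Of 11 measured LXR target genes, 1 was higher and 1 lower. Tgm2, a transglutaminase, was 27.7 and 126 CPM (2.19), and Scd1, the stearoyl-CoA desaturase, had 27 UMIs in the control against 0 in the KO library. Of 13 measured lipoprotein receptors 2 were higher, Msr1, the scavenger receptor A (60.9 and 139 CPM, 1.19), and Stab1 (64.1 and 128 CPM). Ch25h, the cholesterol 25-hydroxylase, had 12 and 12 UMIs (2.08), the 1 higher of 11 measured egress and oxysterol genes. Of 6 measured receptors and coregulators 1 was lower, Rxra (-1.11), and of 8 ABC transporters none passed 2-fold. Lpl was 2461 and 1443 CPM (-0.77).

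The genes most like each member were sought over 18 groups (cell class by library), among 12458 genes, by Pearson correlation of log2(CPM + 1). The groups share libraries and depth, so the values are a description. For Apoe they were Ninj1 (0.90), Fn1 (0.87) and Pla2g7 (0.87), and for Abca8a Inmt and Penk (both 0.96) and Dpep1 (0.95). Apoc1 was closest to Slc6a13 (0.82) and Hp (0.80), Nr1h3 to Zcchc24 (0.96), and Lrp1 to Ifi204 (0.93). Between members, Apoe correlated with Pltp at 0.75 and with Abca1 at 0.65, and with Abca8a at 0.14.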

How the data were processed

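Gonadal SVF from 1 control and 1 Adipo-Pgam1 KO library was analysed from the UMI counts per gene and barcode that the authors deposited after Cell Ranger 3.0.1 on mm10 (per the labels' processing notes, which also name Seurat 3.1.5 and R 4.0.1). The tables held 8522 and 2730 barcodes with 42859406 and 13821581 UMIs. The filter required 500 detected genes and allowed 10% of UMIs from mitochondrial genes (3881 and 958 barcodes passed), and the highest Scrublet scores were removed as doublets, at 0.8% per 1000 barcodes (265 and 21 cells).

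Counts were scaled to 10000 per cell and logged, and 2000 variable genes, without the 8 genes, the pathway lists and Pgam1, gave 30 principal components, a graph of 20 neighbours and 25 Leiden clusters at resolution 0.5 (scanpy 1.11.5, leidenalg 0.10.2, Python 3.11.15). A cluster took the name whose 8 markers had the highest mean z-score, if above 0.5 and 0.75 ahead of the next, with at least 3 markers in 10% of cells. These limits were set after the values were seen, as was leaving 1 cluster with Foxp3 among its leading genes unnamed. Clusters 9 and 15 also stayed unnamed. Erythroid markers scored highest in both and met these limits, at 4.29 and 1.38 against 1.38 and 0.590 for the next name. Cells with UMIs of at least 3 of 8 Schwann cell markers were left out of every other class. They were kept under the name Schwann cell-like cells (19 control and 8 KO cells). The name rests on this rule alone, and the 10 control and 3 KO cells of them in clusters 0 and 3 also had fibroblast markers.

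Summed CPM has exact Poisson intervals, shares have Clopper-Pearson intervals, and ratios have conditional binomial intervals, all at 95%. A gene at 3 UMIs or fewer in both libraries was given no ratio, and a count of 0 was set against a floor of 3 UMIs. Genes were counted past 2-fold from 50 UMIs, or from 10 UMIs in lists. For these counts every value under 3 UMIs was raised to 3. The KO library had fewer UMIs in the counted groups, so a gene with few control UMIs could not be counted as lower. The list counts are partly set by this floor. There was no test between genotypes. The genes named are the 8 members, Pgam1, the genes of each list past 2-fold or with the most UMIs, and the 5 most correlated with each member, of which some are printed. Nr1h2 was added after its value was seen. The members and lists were chosen with earlier results of these data known. Alternatives were TMM (edgeR 4.0.16, R 4.3.3) and median-of-ratios scaling, other cell filters, no doublet removal, other clusterings, marker gates, thinning and trimming. Coordinates are from GENCODE M21, which held 28339 of the 28692 gene IDs. The counting was tested on simulated data.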

Additional observations from a re-analysis of the deposited data

How the results depend on the processing

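Apoe in fibroblast-like cells was higher in the KO library under all 18 alternatives run, with log2 ratios from 1.07 to 1.52 against 1.30. It was 1.41 with TMM and with median-of-ratios scaling, 1.48 without the 5% of cells of each library highest in Apoe, 1.49 with the cells with Schwann cell markers kept, 1.45 at 1000 genes and 5% mitochondrial UMIs, 1.52 with the control clustered alone and 1.07 with marker gates. Apoc1, at -0.02, was 1.79 with the cells with Schwann cell markers kept and 1.92 without the 5% highest cells, the latter from 5 and 6 UMIs. With marker gates it was 0.61 (0.18 to 1.03). The 117 genes 2-fold or more higher became 53 after thinning, 220 from 20 UMIs and 3728 from 1 UMI. The 180 lower became 324 with marker gates and 393 from 20 UMIs and from 1 UMI. Counts under 3 UMIs were raised to 3, and the KO class had fewer UMIs in all. A gene at 3 UMIs or fewer in both libraries was therefore always counted as higher, and nothing is read from the 3728. Nr1h3 turned to 0.15 in fibroblast-like cells after thinning. In macrophage-like cells Nr1h3 turned to 1.21 at 200 genes and 20% mitochondrial UMIs and to 1.02 with the control clustered alone, and Lrp1 to 0.094 and 0.17. The class was not made of the same cells there. It held 469 and 24 cells in the first setting and 326 and 24 in the second, against 652 and 96 in the main one. In cluster 2 of the main setting, Nr1h3 was 1.24 and Lrp1 0.07. The cause was not tested for these values. For 13 other ratios, 229 values were computed, of which 188 stayed within the counting interval, 36 moved past it and 5 turned the sign of a ratio whose interval had excluded 0. Of the alternatives, 2 were added after seeing the data: Schwann cell markers counted without Scn7a, and the single KO cell left out. No paired analysis was possible because each genotype had 1 library. Depth limits Apoc1 and Abcg1 most in fibroblast-like cells, where the KO library had 25 and 1 UMIs.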
